A study of Anopheles gambiae with 15 samples.

Results

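The X chromosome of the malaria mosquito Anopheles gambiae was read here through the probe sets whose ID starts with Ag.X., 1403 of the 22761 on the array. A probe set is a group of short oligonucleotides that reads the same transcript. Probe sets with the same arm and number in the ID were taken as a stem, and the probe set with the highest mean over all arrays stood for its stem. This gave 1242 X stems, 8.33% of the 14906 stems whose ID starts with Ag. The other stems carry 2L (2999), 2R (3848), 3L (2198), 3R (2754) or UNKN (1865) in place of X, and the first 4 of these are called the other arms below. The RefSeq annotation of assembly idAnoGambNW_F1_1 places 1171 of 12519 protein-coding genes on X (9.35%), but it matched 0 of the IDs, so probe sets appear under their IDs and the arm of an ID was not checked by sequence. No source used here states what the order of the numbers means or gives a genome build for it.

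In this species a male carries an X and a Y, and a female carries a pair of X chromosomes. X genes of males are known to be dosage compensated, so that the X is read out at a level close to that of the autosomes in both sexes. The X also carries the ribosomal RNA genes and a large block of heterochromatin, and 510 of the 615 ribosomal RNA genes in the RefSeq annotation lie on it.

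Levels were measured in fourth-instar larvae of the G3 strain, reared at 28 °C, with no treatment and no altered allele in any group. The 4 gut sections were the gastric caeca (blind pouches at the front of the midgut), the anterior midgut, the posterior midgut, and the hindgut together with the Malpighian tubules (the excretory organs). The fifth group was whole larvae, which hold the same gut sections among other tissues. Each group had 3 arrays, with 1000 dissected guts pooled per section array and 200 individuals per whole-larva array, and the labels name no sex for the pooled larvae. The sections were not checked against marker genes here because the IDs are not paired with genes.

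Values are log2 levels made by RMA, a method that corrects background, scales arrays to each other and summarises the probes of a set. Anterior midgut array 2 stood apart, with an SD of 1.39 over all stems against 1.57 to 1.83 on the other 14 arrays. The root mean square SD of X stems within a group was 0.457 in anterior midgut and 0.364 in whole larvae, against 0.211 to 0.238 in the other 3 groups. The control transcripts of the mosquito read at both ends had 3′ minus 5′ mean differences of 0.83 (caeca), 0.90 (anterior midgut), 0.96 (posterior midgut) and 0.93 (whole larvae), on the log2 scale with SDs of 0.15 to 0.26 (n = 3). The hindgut mean was 0.08 ± 0.26 (SD, n = 3), and its part in the hindgut results below was not tested. In pooled tissue, fewer cells that hold a transcript and less of it per cell cannot be told apart.

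The middle of the X distribution lay close to that of the rest of the genome. The median X level was 5.15 ± 0.01 in caeca, 5.17 ± 0.05 in posterior midgut and 5.16 ± 0.02 in whole larvae (log2, SD, n = 3). It was 5.28 ± 0.10 in anterior midgut and 5.02 ± 0.05 in hindgut. The X median minus the median of all other Ag. stems on the same array was 0.15 ± 0.05 in anterior midgut, 0.08 ± 0.01 in caeca, 0.08 ± 0.02 in posterior midgut, 0.06 ± 0.02 in whole larvae and 0.02 ± 0.03 in hindgut. The difference was above 0 on all arrays of 4 groups and straddled 0 in hindgut, where it ran from -0.0013 to 0.0528. Against the other arms alone, the median of the group means of X stems was inside their range in caeca and whole larvae. It was above the range in anterior midgut (5.29 against 5.12 to 5.22) and, narrowly, in posterior midgut (5.19 against 5.08 to 5.18). In hindgut it was below the range (5.02 against 5.05 to 5.18). Taken array by array, only the anterior midgut order held on each array. Posterior midgut arrays 1 and 2 and hindgut array 3 had the X median inside the range.

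The bright end of the X was thinner than that of each other arm in all 5 groups. The share of X stems with a mean above 10 on the log2 scale was 2.09% in whole larvae, against 2.61% to 3.85% on the other arms. It was 3.14% in hindgut (3.52% to 4.24% on the other arms), 2.82% in caeca (3.52% to 4.96%), 2.09% in posterior midgut (3.01% to 4.11%) and 1.85% in anterior midgut (2.65% to 3.22%). These shares are descriptions with no test, since stems of the same arm share all arrays. A background was set at the 95th percentile of the 290 probe sets whose ID starts with a number, which lay between 5.29 and 5.83 in the 5 groups. Above it in at least 1 group lay 644 X stems (51.9%), against 51.4% to 55.1% on the other arms. A lower background, the same percentile of the 4506 probe sets whose ID starts with Pf, lay between 3.96 and 4.10. Above that lay 93.8% to 96.9% of X stems, depending on the group, against 93.5% to 98.0% on the other arms. In what follows the background is the higher one, and a mean under it can lie above the lower one.

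The 2 X stems with the highest mean over all arrays, a choice that favours stems bright in every group, are given first. Ag.X.83.0_CDS_a_at read 13.27, 12.67 and 13.43 in whole larvae, 12.88, 12.96 and 12.86 in caeca, 12.69, 12.66 and 12.63 in hindgut, 12.97, 12.84 and 13.10 in anterior midgut and 12.96, 13.07 and 13.38 in posterior midgut. Ag.X.75.0_CDS_at read 13.25, 13.05 and 13.14 in whole larvae, 12.92, 12.88 and 12.94 in caeca, 12.97, 12.94 and 12.78 in hindgut, 12.89, 12.60 and 13.05 in anterior midgut and 12.90, 12.94 and 12.87 in posterior midgut. Whether signals this bright were near saturation was not tested. Neither stem was called in any section, and the largest difference of a section from whole larvae among both was 1.38-fold (Ag.X.83.0_CDS_a_at in hindgut, limma adjusted p = 0.0791).

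Each section was then compared with whole larvae, the question stated in the study's design. A stem was called higher or lower at an adjusted p under 0.05 (limma, Benjamini-Hochberg over all 16884 Ag. probe sets) and a difference of at least 2-fold. All 4 comparisons share the 3 whole-larva arrays. Across them 1069 X stems (86.1%) had no call, against 81.7% of the other Ag. stems. The share of X stems called was below that of each other arm in 8 of 8 counts, higher and lower in each section. It was not the lowest of all: UNKN stems were called less often than X stems in 7 of the 8, and 91.5% of them had no call. Among stems above the background it was also below in 8 of 8, and over the alternative settings in 6 to 8. The order of the shares was not tested.

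**Figure D1:**
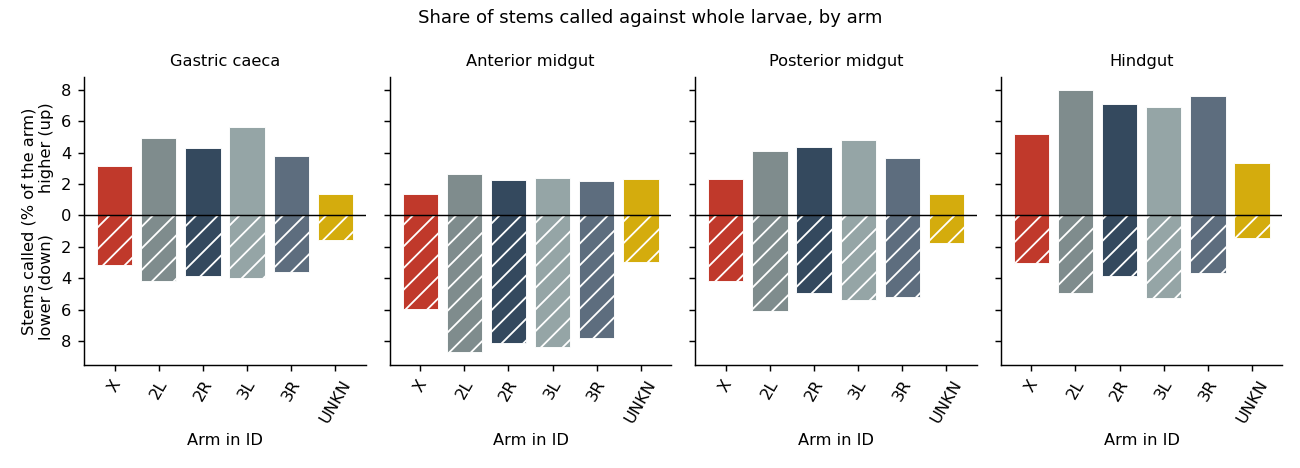
Share of stems called against whole larvae in each section, by the arm in the ID, in percent of the arm's stems; plain bars upwards are stems called higher and hatched bars downwards stems called lower. The X bars are shorter than those of 2L, 2R, 3L and 3R in all 8 counts, for example 5.15% of X stems higher in hindgut against 6.87% to 7.97% on those arms.

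The share called followed the level. Of X stems with a mean under 5 on the log2 scale, 1.33% were called in at least 1 section, against 2.52% to 3.38% on the other arms. Between 5 and 6 the share was 10.2% against 17.1% to 18.0%, and between 6 and 8 it was 33.9% against 40.5% to 46.7%. From 8 upwards it was 51.1% (45 of 88), against 51.1% to 55.5% on the other arms, so the X was inside their range there and below it in the 3 dimmer classes. In this brightest class the X lay above each other arm for rises in hindgut (23.9% against 18.1% to 21.1%). The same held, narrowly, for falls in anterior midgut (21.6% against 14.6% to 21.2%). It lay below each of them for rises in caeca and both midgut sections and for falls in hindgut, and inside their range for the other falls. With 88 X stems in the brightest class, the orders within it can turn on a few stems. The mean level over all arrays includes the arrays compared, and these classes are a description.

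In gastric caeca 39 X stems were higher than in whole larvae (3.14%, against 4.07% of all Ag. stems) and 39 were lower (3.14%, against 3.56%). Ag.X.376.0_CDS_at read 11.15, 11.44 and 10.06 in caeca and 6.16, 9.17 and 6.93 in whole larvae. The groups did not overlap, but whole-larva array 2 lay more than 2 log2 units above the other 2 arrays of its group. The rise was 11.0-fold (limma adjusted p = 0.00684), and it was 7.13-fold without whole-larva array 1 and 20.2-fold without whole-larva array 2. Ag.X.858.0_CDS_at read 8.71, 9.67 and 9.47 in caeca against 7.41, 6.54 and 5.13 in whole larvae. That is a rise of 7.57-fold (limma adjusted p = 0.00135), or 4.94-fold without whole-larva array 3. All 3 caeca arrays lay above all other 12 arrays, the other 3 sections reading between 4.42 and 6.03.

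The largest falls in caeca were those of Ag.X.226.0_CDS_at and Ag.X.860.0_CDS_at. Ag.X.226.0_CDS_at read 5.33, 5.22 and 5.21 in caeca and 9.93, 9.64 and 7.32 in whole larvae, a 13.1-fold difference (limma adjusted p = 0.0005), or 23.2-fold without whole-larva array 3. Its caeca mean lay below the background, so the fold is not exact. It was also called lower in the other 3 sections, with hindgut the least low at 7.76, 6.90 and 6.51. Ag.X.860.0_CDS_at read 5.66, 6.38 and 5.64 in caeca and 8.36, 9.08 and 9.83 in whole larvae, a 9.18-fold difference (limma adjusted p = 0.0001).

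In anterior midgut falls outnumbered rises on the X, 74 stems (5.96%, against 7.38% of all Ag. stems) against 17 (1.37%, against 2.29%). This split depended on the scaling: of the X calls 18.7% were higher with the deposited values, and 55.3% (78 higher, 63 lower) after quantile normalization of the 15 arrays. It also depended on array 3, without which 50 X stems were higher and 105 lower. Of the 37 X stems whose chosen ID says UTR, 0 were higher and 9 lower (24.3%), close to the 25.1% lower among the 378 such stems elsewhere. The 1021 X stems with CDS in the ID had 16 higher (1.57%) and 49 lower (4.80%), against 2.51% and 6.07% of such stems elsewhere.

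Ag.X.1089.1_CDS_a_at had the largest rise in anterior midgut, at 10.81, 9.38 and 10.94 against 6.55, 6.29 and 7.53 in whole larvae. The rise was 12.0-fold (limma adjusted p = 4.7e-05), with no overlap between the groups. Ag.X.891.0_CDS_at followed at 10.23, 10.47 and 11.55 against 7.99, 6.94 and 8.38, a 7.90-fold rise (limma adjusted p = 0.00116). Both were also higher in anterior midgut than in each other section, 2.85-fold over hindgut for Ag.X.1089.1_CDS_a_at and 5.36-fold over caeca for Ag.X.891.0_CDS_at, the nearest sections. They were the 2 X stems so called (0.161%, against 0.295% of all Ag. stems), and without anterior midgut array 3 the count was 18.

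The largest falls in anterior midgut were shared with posterior midgut. Ag.X.82.0_UTR_a_at read 7.33, 5.74 and 7.69 in anterior midgut and 6.65, 7.76 and 7.33 in posterior midgut, against 11.17, 11.60 and 10.64 in whole larvae. The anterior fall was 18.6-fold (limma adjusted p = 2e-05), or 12.4-fold without anterior midgut array 2. In hindgut the same stem read 11.54, 11.27 and 11.25, inside the whole-larva range. Ag.X.1101.0_CDS_at read 6.46, 8.38 and 6.23 in anterior midgut and 6.82, 7.55 and 7.50 in posterior midgut, against 11.09, 11.04 and 11.00 in whole larvae. Its anterior fall was 16.2-fold (limma adjusted p = 2.6e-05), or 25.9-fold without anterior midgut array 2, and its caeca arrays lay above whole larvae at 12.72, 12.76 and 12.86.

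In posterior midgut 29 X stems were higher (2.33%, against 3.7% of all Ag. stems) and 52 lower (4.19%, against 4.83%). Of these calls 35.8% were higher, and 47.1% after quantile normalization. Ag.X.426.0_CDS_at read 9.80, 9.90 and 9.55 in posterior midgut against 6.45, 7.47 and 7.20 in whole larvae, with no overlap, a 6.57-fold rise (limma adjusted p = 7.3e-05). It also rose 3.0-fold in caeca and 4.24-fold in anterior midgut, and in hindgut it read 7.17, 7.84 and 7.46 with no call. Ag.X.376.0_CDS_at, described above for caeca, read 10.05, 10.95 and 10.03 in posterior midgut, a 7.59-fold rise (limma adjusted p = 0.0174). That call was lost without posterior midgut array 2, whole-larva array 1 or whole-larva array 3 (adjusted p from 0.0545 to 0.0755), and the rise was 13.9-fold without whole-larva array 2.

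Ag.X.71.2_s_at read 5.76, 5.72 and 5.53 in posterior midgut and 9.89, 9.27 and 11.12 in whole larvae, the largest posterior fall at 21.4-fold (limma adjusted p = 1.3e-05). It was lower in all 4 sections, and so were 15 X stems in all (1.21%, against 1.56% of all Ag. stems). In the array maker's naming, the suffix _s_at marks probes that match several transcripts, so the source of this signal is uncertain. Ag.X.4.0_CDS_at read 7.63, 8.21 and 7.13 in posterior midgut against 9.60, 12.91 and 12.54 in whole larvae. The fall of 16.3-fold (limma adjusted p = 0.00266) rested on an uneven control group, and was 33.6-fold without whole-larva array 1 and 10.7-fold without whole-larva array 2.

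In hindgut 64 X stems were higher (5.15%, against 6.69% of all Ag. stems) and 38 lower (3.06%, against 3.88%). This was the largest count of X rises with the deposited values, but not after quantile normalization (78 in anterior midgut, 41 in hindgut) or with no minimum fold (142 and 100). Of these calls 62.7% were higher with the deposited values and 51.9% (41 higher, 38 lower) after quantile normalization. For 34 X stems hindgut was the only section called higher, with no call lower in another (2.74%, against 3.71% of all Ag. stems). Ag.X.533.1_a_at read 9.84, 9.95 and 10.97 in hindgut against 6.43, 6.86 and 6.04 in whole larvae, a 14-fold rise (limma adjusted p = 2e-06). Ag.X.7.0_CDS_at read 12.00, 11.65 and 11.73 against 7.77, 8.59 and 8.17, a 12.3-fold rise (limma adjusted p = 2e-05). In both the hindgut arrays lay above all other 12 arrays.

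The largest hindgut fall was that of Ag.X.780.0_CDS_s_at, whose suffix again marks shared probes. It read 3.94, 4.05 and 3.52 in hindgut and 8.97, 8.97 and 9.03 in whole larvae, a 35.6-fold difference (limma adjusted p = 1.5e-07) with a hindgut mean below the background. Ag.X.71.2_s_at, low in all sections, read 6.93, 6.18 and 6.29 in hindgut, a 12.3-fold difference from whole larvae (limma adjusted p = 5e-05).

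Set against the other 3 sections alone, hindgut held most of the calls. There 40 X stems were higher than in each other section (3.22%, against 4.39% of all Ag. stems and 4.69% to 5.30% on the other arms) and 12 were lower (0.966%, against 0.832%). The hindgut arrays of Ag.X.533.1_a_at lay 21.9-fold above anterior midgut, the nearest section, at 5.82, 6.08 and 5.5 (limma adjusted p = 2.5e-07). The anterior midgut mean lay below the background, so this fold is not exact. Ag.X.336.0_CDS_at read 10.71, 9.82 and 10.06 in hindgut and 6.20, 6.62 and 6.11 in anterior midgut, 14.8-fold apart (limma adjusted p = 7.1e-08). Caeca and posterior midgut held it at 5.81 to 6.31, so it was raised in hindgut alone among the 4 sections. Ag.X.891.0_CDS_at, the stem raised in anterior midgut, had the widest measured gap among the stems lower in hindgut, at 4.94, 4.89 and 5.08, 5.89-fold below posterior midgut (limma adjusted p = 0.00256). Its hindgut mean lay below the background, so the fold and its rank are not exact.

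In caeca 10 X stems were higher than in each other section (0.805%, against 0.785% of all Ag. stems) and 1 was lower (0.0805%, against 0.0805%). Ag.X.780.0_CDS_s_at read 11.08, 11.02 and 11.41 in caeca and 4.72, 6.27 and 5.65 in posterior midgut, the nearest section, 49.2-fold apart (limma adjusted p = 9.8e-08). The posterior midgut mean lay below the background, so this fold is not exact. Ag.X.8.1_a_at had a wide gap too, but with more spread. It read 10.32, 12.00 and 12.12 in caeca and 5.25, 6.64 and 8.53 in anterior midgut (25.5-fold, limma adjusted p = 0.0302), and 5.33, 9.69 and 9.91 in whole larvae, where caeca stood 9.0-fold higher with no call (limma adjusted p = 0.114). Its call against the other sections was lost without any of 6 single arrays: caeca 2 or 3 (limma adjusted p = 0.116 and 0.118), anterior midgut 1 or 2 (0.113 and 0.086), or posterior midgut 1 or 3 (0.0666 and 0.0637). The fold was 14.9 without anterior midgut array 1. Ag.X.274.0_CDS_a_at was the lowered stem, at 4.83, 4.73 and 4.86 in caeca against 6.10, 7.37 and 5.78 in anterior midgut (3.05-fold, limma adjusted p = 0.0286), with a caeca mean below the background. That call was lost without any of the 3 caeca arrays (limma adjusted p from 0.0762 to 0.103) or without anterior midgut array 2 (0.0925).

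In anterior midgut 10 X stems were lower than in each other section (0.805%, against 1.29% of all Ag. stems). Ag.X.7.0_CDS_at, raised in hindgut, was the lowest, at 5.52, 5.28 and 6.20 against 7.93, 9.59 and 8.20 in posterior midgut (7.50-fold, limma adjusted p = 0.000382). Its anterior midgut mean lay below the background, so the fold and its rank are not exact. Posterior midgut had 1 X stem higher than each other section (0.0805%, against 0.161% of all Ag. stems) and 1 lower (0.0805%, against 0.0201%). Ag.X.97.0_CDS_at read 10.30, 10.34 and 10.44 there and 9.24, 9.23 and 9.28 in hindgut (2.16-fold, limma adjusted p = 0.022). Ag.X.67.0_CDS_a_at read 10.34, 9.74 and 9.61 there and 10.73, 11.10 and 11.25 in caeca (2.19-fold, limma adjusted p = 0.0147). Neither call was firm. The first was lost without posterior midgut array 1 or 3 or any of the 3 hindgut arrays (limma adjusted p from 0.0522 to 0.0705), and the second without caeca array 2 or 3 or posterior midgut array 2 or 3 (0.0707 to 0.085).

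For 18 X stems (1.45%, against 2.07% of all Ag. stems) the calls against whole larvae ran in opposite directions in different sections. In 13 of them hindgut was higher while another section was lower (1.05% of X stems, against 1.07% of all Ag. stems). Ag.X.860.0_CDS_at split the gut front from back: caeca and anterior midgut (5.56, 5.99 and 6.71) were low, and posterior midgut (10.71, 11.61 and 11.50) and hindgut (12.52, 12.43 and 12.32) were high, with whole larvae between them. Ag.X.780.0_CDS_s_at and Ag.X.1101.0_CDS_at were high in caeca and low in the other 3 sections. Ag.X.274.0_CDS_a_at rose along the gut in the order caeca, anterior midgut, posterior midgut (7.15, 8.42 and 8.06) and hindgut (10.05, 9.44 and 9.60), but the arrays of anterior and posterior midgut overlapped.

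**Figure D2:**
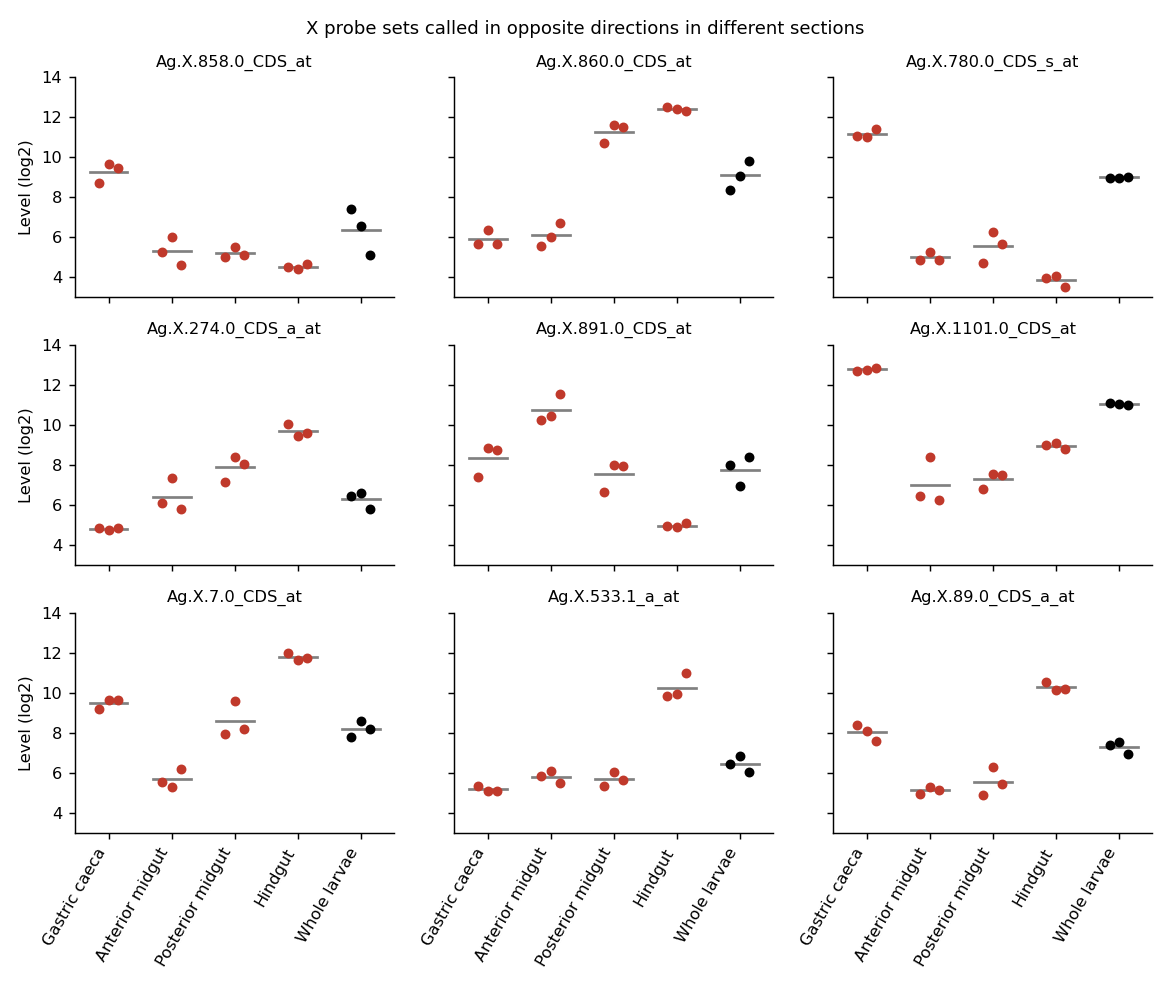
Log2 level on each of the 15 arrays for 9 named X probe sets called in opposite directions against whole larvae in different sections; points are arrays, grey bars are group means of 3 arrays, and whole larvae are black. Ag.X.780.0_CDS_s_at runs from 11.02 to 11.41 in caeca and from 3.52 to 4.05 in hindgut, and Ag.X.7.0_CDS_at is lowest in anterior midgut and highest in hindgut.

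The ID number carried information about the level. Numbers on the X run from 1 to 1842. Spearman's rho between number and mean level over the 1242 X stems was -0.418, against -0.365 to -0.398 on the other arms and -0.095 for UNKN, given as a description across stems that share all arrays. In whole larvae the median X level was 6.56 in numbers 1 to 250, 5.41 in numbers 251 to 500, 4.95 in numbers 501 to 750 and 4.78 in numbers 751 to 1000. The share of X stems called in at least 1 section was 28.0%, 15.3%, 6.07% and 8.37% in the same bins. On the other arms it was 22.3% to 35.1%, 35.2% to 40.2%, 23.4% to 35.5% and 17.8% to 32.2%, and numbers there run higher. Of the 37 X stems read by a UTR probe set, 30 have a number up to 250 and 7 a number from 251 to 500. Above 1250 every X stem is read by a probe set with neither CDS nor UTR in its ID. Low X numbers thus marked brighter stems that were more often called.

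**Figure D3:**
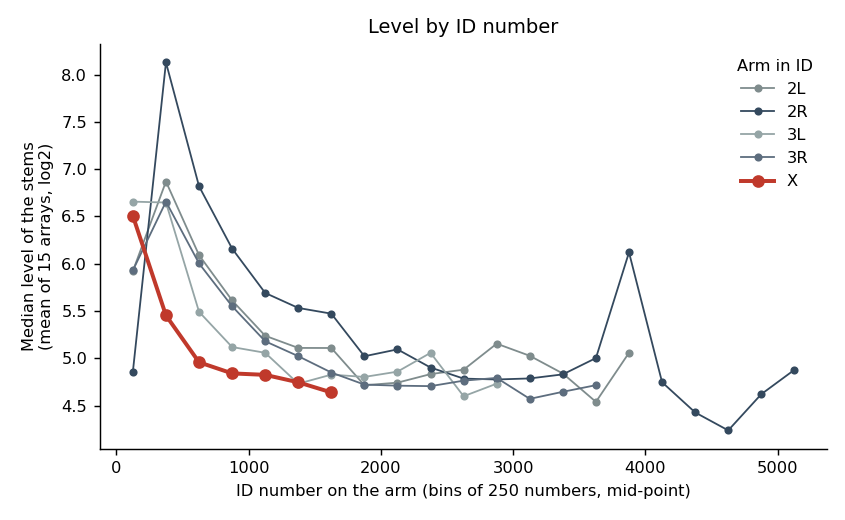
Median log2 level (mean of 15 arrays) of the stems in bins of 250 ID numbers, plotted at the middle of the bin, for X and the other arms; bins with few stems are left out. The X starts at 6.51 and falls to 4.64, and it reaches a level under 5 at lower numbers than the other arms apart from the first bin of 2R (4.86).

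Neighbouring numbers had only slightly similar profiles. Pearson's r over the 15 arrays averaged 0.172 for the 1118 X pairs next to each other in number, against 0.108 to 0.124 on the other arms. The X mean stayed at 0.140 for numbers 100 apart, against 0.0645 to 0.0848 on the other arms, so it changed little with distance. In numbers 1 to 250 the mean fell from 0.144 at a distance of 1 to 0.0331 at 50 and 0.0046 at 100. There the other arms had 0.109 to 0.191 at a distance of 1 and -0.0076 to 0.157 at 50, so the X was inside their range. In numbers 251 to 1000 the X had 0.188, 0.145 and 0.181, against 0.0630 to 0.169, 0.0524 to 0.126 and 0.0457 to 0.141 on the other arms. UNKN stems had 0.323 at a distance of 1 over all numbers, and 0.289, 0.257 and 0.230 in numbers 251 to 1000, each above the X. In numbers 251 to 1000 the X stems were dimmer than those of each other arm, with median levels of 5.45, 4.96 and 4.84 in successive bins of 250. The part of level in these correlations was not tested. All pairs share the arrays, and no p is given.

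**Figure D4:**
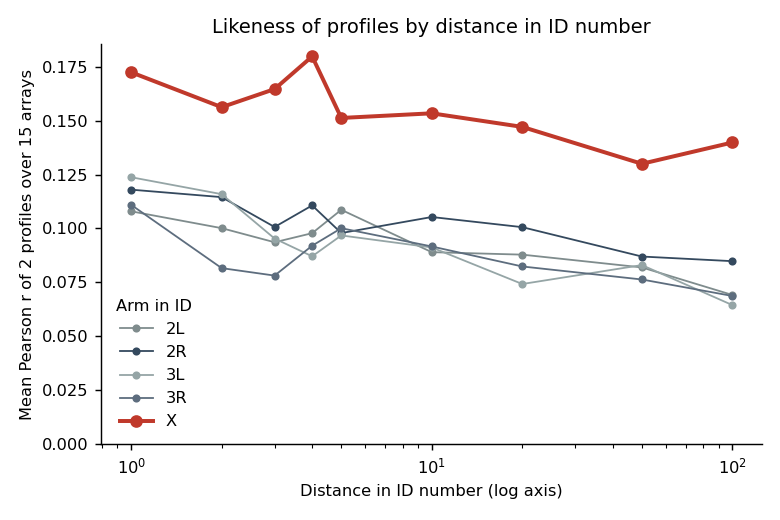
Mean Pearson r between the profiles of 2 stems over 15 arrays, by their distance in ID number (log axis), for X and the other arms. The X lies at 0.172 at distance 1 and 0.140 at distance 100, above the other arms at every distance plotted when all numbers are pooled, but not within numbers 1 to 250.

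Runs of called neighbours were short, the longest holding 3 numbers on X, 2R and 3R, 4 on 2L and 5 on 3L. A run is at least 2 consecutive numbers called the same way in the same section. There were 27 on the X, over 20 stretches of numbers, holding 56 of the 352 X calls (15.9%, against 17.5% to 19.2% on the other arms). They held 39 X stems, 25 of them with a number up to 250. The 12 runs of falls in anterior midgut held 25 of the 74 falls there (33.8%, against 22.3% to 26.6% on the other arms). The other 15 runs were spread over falls in the other 3 sections and rises in caeca and hindgut, and no run of rises was found in anterior or posterior midgut.

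The longest run was numbers 87 to 89, lower in anterior and posterior midgut. Ag.X.87.0_CDS_a_at read 4.31, 4.15 and 3.87 in anterior midgut against 7.45, 9.24 and 6.10 in whole larvae. It differed by 11.2-fold (limma adjusted p = 0.00107), or 6.36-fold without whole-larva array 2 and 18.8-fold without whole-larva array 3, with the anterior midgut mean below the background. Ag.X.88.0_UTR_at read 6.09, 6.36 and 5.92 against 8.96, 7.82 and 7.36 (3.80-fold, limma adjusted p = 0.00061), and Ag.X.89.0_CDS_a_at read 4.93, 5.30 and 5.15 against 7.37, 7.54 and 6.95 (4.46-fold, limma adjusted p = 0.000314), the latter again with an anterior midgut mean below the background. The 3 parted in hindgut. In that section Ag.X.89.0_CDS_a_at stood above whole larvae at 10.54, 10.16 and 10.19, Ag.X.88.0_UTR_at below at 5.35, 5.65 and 5.71, and Ag.X.87.0_CDS_a_at had no call at 6.10, 5.45 and 6.73.

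Among the runs of rises, all 2 numbers long, the largest change was at 859 and 860 in hindgut. Ag.X.859.0_CDS_at read 7.05, 6.87 and 7.0 in hindgut against 5.55, 5.68 and 5.20 in whole larvae, a 2.82-fold rise (limma adjusted p = 3.1e-05). Ag.X.860.0_CDS_at rose 10.1-fold there (limma adjusted p = 4.1e-05). Elsewhere they differed: caeca, where the mean of Ag.X.860.0_CDS_at was lowest, held Ag.X.859.0_CDS_at at 6.52, 6.26 and 6.44, above all whole-larva arrays and short of the 2-fold limit. The closest match within a run was between numbers 225 and 226, low in caeca and both midgut sections, with r = 0.94 over the 15 arrays.

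**Figure D5:**
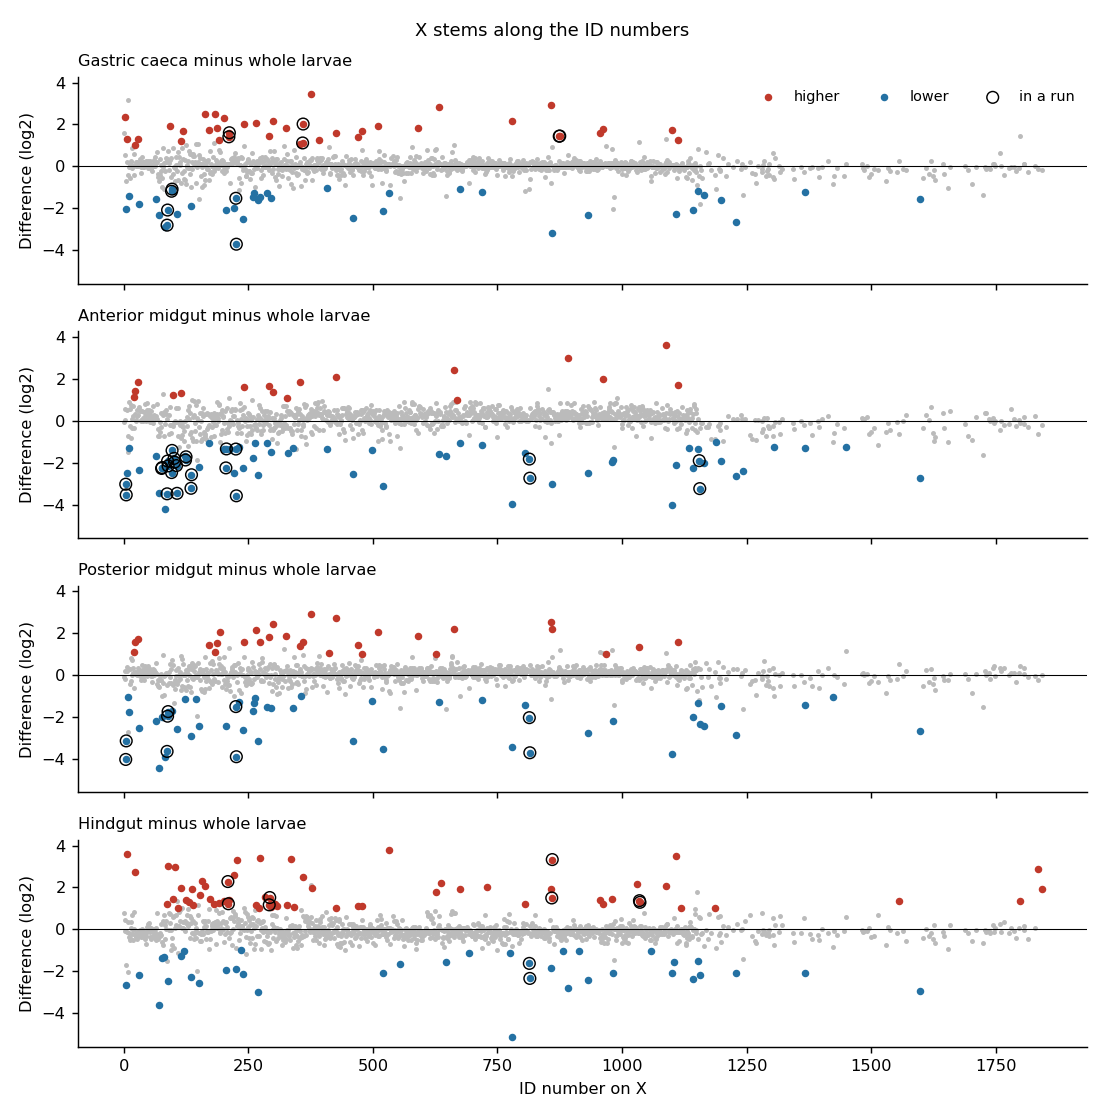
Difference of each section from whole larvae (log2) for the 1242 X stems along the ID number; red points are called higher, blue points lower, grey points have no call, and circles mark stems in a run. Calls thin out above number 500, and the circles in anterior midgut lie mostly below 250.

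A call could depend on the probe set that stood for a stem. Of the 1242 X stems, 141 have several probe sets, which gave 182 pairs with a mean r of 0.539 over the arrays. The chosen probe set was called in at least 1 section in 31 of these stems, and in 15 of the 31 (48.4%, against 63.1% to 71.3% on the other arms) a partner did not share a call. In 0 of the 141 X stems did 2 probe sets have opposite calls. The other arms had 2 of 363 (2L), 1 of 493 (2R), 2 of 248 (3L) and 1 of 342 (3R), and counts this small do not set the X apart.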

How the data were processed

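RNA levels were read on 15 oligonucleotide arrays, 3 in each of 5 groups. The submitters' processing notes name RMA for the deposited log2 values, with no version (not given in the sources used here), and the range of the values bears out a log2 scale. RMA draws dim signals towards a floor, so folds of dim probe sets are understated. Values were used as deposited. Group means were fitted to all 15 arrays and 16884 Ag. probe sets with lmFit and eBayes in limma 3.58.1 (R 4.3.3), with 2.76 prior degrees of freedom and Benjamini-Hochberg adjustment within a contrast, and tables were made with Python 3.11.15 and pandas 2.3.3. Stems were called at an adjusted p under 0.05 and at least 2-fold. The fit was tested on simulated data with changes in hindgut alone and the same spread of a probe set in every group. Its setting lacked the unequal group spreads of the real arrays, so it does not show how the fit performs under them. The number of arrays limits the precision, and p-values rest on the spread between pools that the labels call biological repeats. That spread was estimated once per probe set over all 5 groups, not from the 2 groups compared alone. For X stems it was wider in anterior midgut and whole larvae (root mean square SD 0.457 and 0.364) than in the other groups (0.211 to 0.238). A p can therefore be too small in comparisons with anterior midgut or whole larvae.

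The members and lists were chosen with earlier results of these data known. Per section, the 2 largest rises and 2 largest falls among called X stems whose arrays did not overlap whole larvae are named, with the 2 called highest and the 1 called lowest among sections, the longest run in each direction and the 2 brightest stems. Deviations from group means of same-numbered arrays correlated at over 0.1 in all 3 pairs for 3 comparisons: whole larvae with caeca (0.268 to 0.350) or with posterior midgut (0.172 to 0.257), and posterior midgut with caeca (0.300 to 0.350). Same-numbered arrays of these groups may therefore be paired, but the fit behind the reported calls, folds and p-values had no replicate term. A replicate block was used only as an alternative setting. The labels do not state a pairing. Probe sequences were not used here, and none is printed. Alternatives were other scalings, filters, probe sets per stem, array weights, a replicate block, fewer arrays and other thresholds. The count of shares below each other arm was added after seeing the data.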

Additional observations from a re-analysis of the deposited data

Results flagged for a closer look

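Among the named stems, 9 were called in opposite directions against whole larvae in 2 sections, which share the whole-larva arrays. That choice fixes a wide difference between the sections, so the differences are given as a description, with no test. In 7 of them the lower section lay below the background, so the size and order of the differences are not exact; Ag.X.860.0_CDS_at and Ag.X.1101.0_CDS_at are the exceptions. Caeca exceeded hindgut by 7.33 log2 units for Ag.X.780.0_CDS_s_at, at 2.18 above whole larvae in caeca and at -5.15 in hindgut, and by 4.75 for Ag.X.858.0_CDS_at. Hindgut exceeded caeca by 6.53 log2 units for Ag.X.860.0_CDS_at, by 5.07 for Ag.X.533.1_a_at and by 4.88 for Ag.X.274.0_CDS_a_at. Hindgut exceeded anterior midgut by 6.13 log2 units for Ag.X.7.0_CDS_at and by 5.17 for Ag.X.89.0_CDS_a_at. Ag.X.891.0_CDS_at ran the other way, with anterior midgut 5.78 log2 units above hindgut. In Ag.X.1101.0_CDS_at caeca lay 5.76 log2 units above anterior midgut.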

How the results depend on the processing

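Of 180 values that alternatives gave for the counts and medians, leaving out the single-array fits, 146 stayed within 1.5 times the reported count or 1 SD of the reported value, and 34 moved. Of 672 values for named stems 648 kept their direction and call, 24 kept their direction and lost the call, and 0 reversed. Besides single arrays, the call of Ag.X.67.0_CDS_a_at was lost after quantile normalization and with array weights. Quantile normalization gave 78 rises in anterior midgut and 41 in hindgut. Array weights gave 29 rises in anterior midgut and 16, 6 and 2 stems highest in caeca, anterior midgut and posterior midgut. Fitting 2 groups alone gave 6 rises and 28 falls in anterior midgut. Leaving out probe sets with the suffix _s_at, _x_at or _a_at gave 11 rises in anterior midgut, 18 rises and 32 falls in posterior midgut, 25 falls in hindgut, 18 stems in runs, and 5 and 1 stems highest in caeca and anterior midgut; these fits hold fewer stems. The methods' test after Benjamini-Hochberg gave 34 rises and 13 falls in hindgut, 4 and 3 in caeca, 0 and 1 in anterior midgut, and 3 and 9 for posterior midgut. No minimum fold gave 63 falls in caeca, 142 rises in anterior midgut, 54 in posterior midgut, and 100 rises and 128 falls in hindgut. The median X difference from whole larvae, less that of the other stems, was -0.0361 in hindgut, 0.0667 in anterior midgut and 0.0154 in caeca; it was 0.0184 and 0.11 in caeca and anterior midgut after quantile normalization, 0.0255 (caeca), 0.161 (anterior midgut) and -0.12 (hindgut) above the background of number IDs, and 0.00868 in caeca without the suffixes. Where no reason is named, the cause was not tested.

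Leaving out single arrays gave 31 to 44 rises and 34 to 53 falls in caeca, 12 to 50 and 62 to 105 in anterior midgut, 52 to 68 and 28 to 45 in hindgut, and 20 to 34 and 47 to 64 in posterior midgut. It gave 32 to 57 X stems in runs, and 7 to 12, 2 to 18, 0 to 2 and 33 to 43 stems highest in caeca, anterior midgut, posterior midgut and hindgut. The X share was below each other arm in 7 to 8 counts, and the mean r of neighbours was 0.143 to 0.18. The median X differences were 0.00752 to 0.0173 in caeca, 0.0538 to 0.0881 in anterior midgut, 0.0122 to 0.0414 in posterior midgut and -0.0416 to -0.0209 in hindgut. With the replicate number as a block, rises and falls numbered 44 and 41 in caeca, 19 and 73 in anterior midgut, 66 and 41 in hindgut and 32 and 53 in posterior midgut, none moved by over 1.5 times.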
